A study of Mus musculus with 12 samples.

Results

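Fibronectin, lubricin, thrombospondin 1, a small set of metalloproteinases and the tissue inhibitors that block many of them were followed as one group of 10 genes (Fn1, Prg4, Thbs1, Mmp9, Mmp14, Mmp19, Adam8, Timp1, Timp2 and Timp3). They were chosen by gene symbol, 10 of the 57010 genes in the count table, and all 10 passed the filter on low counts that left 15943 genes for testing. RNA came from large peritoneal macrophages, sorted as F4/80high MHCIIlow cells, in 4 groups of 3 libraries. The naive groups came from wild type (WT) mice and from mice without Tim4, a receptor for phosphatidylserine on dying cells (Tim4KO), and had no tumour challenge. The challenged groups, called WT ID8 and Tim4KO ID8, came from 8-week-old female mice of the same genotypes, 24 hours after injection into the peritoneal cavity of ID8 cells, a mouse ovarian tumour line that carried the fluorescent protein ZsGreen and ovalbumin. From challenged mice only ZsGreen+ macrophages were taken, so that exposure to tumour cells and the gate for tumour-derived fluorescence cannot be told apart. The age of the naive mice was not stated in the labels used here, nor was it said that the libraries of a group came from separate animals, so p-values measure only the spread between these samples.

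Large peritoneal macrophages live free in the fluid of the body cavity and depend on the transcription factor GATA6. Fibronectin is an adhesive glycoprotein that binds integrins, lubricin (Prg4) coats and lubricates joint and serosal surfaces, and thrombospondin 1 is a matricellular protein that binds CD36 and CD47. Matrix metalloproteinases (MMPs) and the related membrane protease ADAM8 cut matrix and cell surface proteins. TIMPs hold MMPs in check, each with its own preferences: TIMP2 also takes part with MMP14 in activating pro-MMP2, and TIMP3 stays bound to the matrix.

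The flank just before the start site is shown for the inhibitor and the proteinases whose RNA rose most after challenge, and for the inhibitor whose RNA fell. RefSeq windows (build GRCm38.p6) were at hand for 5 of the 10 genes (Mmp14, Adam8, Timp1, Timp2 and Timp3) and not for Fn1, Prg4, Thbs1, Mmp9 and Mmp19. Each line gives the 250 bases upstream of the annotated start, 5′ to 3′ on the gene's own strand, and capitals mark GGGCGG, the core of the GC box bound by SP factors, or its reverse complement. The windows lie at chr14:54431348-54431597 on the plus strand for Mmp14, chr7:139992563-139992812 on the minus strand for Adam8, chrX:20869916-20870165 on the plus strand for Timp1 and chr11:118355412-118355661 on the minus strand for Timp2.
Timp1: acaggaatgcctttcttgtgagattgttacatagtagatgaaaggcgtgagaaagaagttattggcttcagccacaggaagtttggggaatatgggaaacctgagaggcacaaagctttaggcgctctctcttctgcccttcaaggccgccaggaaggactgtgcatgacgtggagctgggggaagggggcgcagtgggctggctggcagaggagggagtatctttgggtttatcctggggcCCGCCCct
Mmp14: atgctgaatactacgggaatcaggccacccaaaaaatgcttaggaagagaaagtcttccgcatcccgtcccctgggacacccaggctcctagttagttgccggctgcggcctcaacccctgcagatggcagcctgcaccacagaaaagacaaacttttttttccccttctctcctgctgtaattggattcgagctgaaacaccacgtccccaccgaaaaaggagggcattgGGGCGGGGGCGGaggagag
Adam8: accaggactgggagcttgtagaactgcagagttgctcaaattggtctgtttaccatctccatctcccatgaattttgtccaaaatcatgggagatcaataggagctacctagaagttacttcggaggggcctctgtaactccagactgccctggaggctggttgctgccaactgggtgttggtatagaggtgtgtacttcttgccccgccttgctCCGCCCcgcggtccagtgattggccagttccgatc
Timp2: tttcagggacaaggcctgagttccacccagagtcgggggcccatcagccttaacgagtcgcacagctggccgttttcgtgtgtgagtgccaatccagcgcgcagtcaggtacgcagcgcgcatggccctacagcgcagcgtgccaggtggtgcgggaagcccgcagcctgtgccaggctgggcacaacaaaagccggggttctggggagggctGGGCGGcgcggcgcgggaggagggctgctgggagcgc
All 5 windows, that of Timp3 included, held GGGCGG on one strand or the other, as did 32.7% of the 32851 upstream windows in the table. In Mmp14 it occurred at -19 to -14 and again at -13 to -8 from the start site, and in Timp1 at -8 to -3. The AP-1 motif TGANTCA (6.75% of all windows), its variant TGANTAA (9.38%), the GATA motif AGATAA (9.99%) and the 10-base NF-kB consensus (7.25%) were searched on both strands, and none of the 5 windows held any of them. Genes that rose and the gene that fell thus shared the same matched motif. These are matches of letters in a short window and were not tested as sites.

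Depth was 7358559 to 23170244 counts per library. Levels below are CPM, the count scaled to a common library size after TMM scaling, and levels of different genes are compared only as CPM per kb of exon. The targeted gene, Timd4, had 9685 to 21320 counts in WT libraries and 20 to 128 in Tim4KO libraries. All 10 macrophage identity markers were detected, with Gata6 and Icam2 among them, at a sum of 49298 to 56867 CPM in naive and 21878 to 27238 CPM in challenged libraries. Lyz2 carried the lower sum, with group means of 45845 and 44156 CPM in naive and 12773 and 13848 CPM in challenged cells (WT and Tim4KO). The other 9 summed to 7614 to 9793 CPM in naive and 11148 to 13788 CPM in challenged libraries. Of these, Csf1r, Mertk and Selp had lower means after challenge in both genotypes. Adgre1, Gata6, Icam2, Itgam, Cd68 and Cebpb had higher means in both. Library 3 of WT ID8 stood apart, with 3486 CPM summed over 18 cell cycle genes against 733 to 1108 in the other challenged libraries. Reads on 1713 olfactory and vomeronasal receptor genes, each with a mean of at most 1 CPM, summed to 259 to 814 CPM in naive, 5.89 to 244.6 in WT ID8 and 41.0 to 347.2 in Tim4KO ID8 libraries.

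Before challenge the 3 matrix proteins and Timp2 were the abundant members, and the proteinases were low. In naive WT cells Fn1 stood at 1364 ± 284 CPM per kb (SD, n = 3), Prg4 at 853 ± 173, Thbs1 at 493 ± 129 and Timp2 at 253 ± 12.6. Adam8 followed at 13.8 ± 0.71 CPM per kb, then Mmp9 at 4.75 ± 1.61, Mmp19 at 1.58 ± 0.12, Mmp14 at 0.41 ± 0.11, Timp1 at 0.17 ± 0.06 and Timp3 at 0.08 ± 0.06. Neighbours in this order did not overlap from library to library down to Timp1, other than Timp1 and Timp3, whose values lay within each other's spread. Naive Tim4KO cells had the same order. Fn1 gave 1.30% to 2.83% of all counts in a library and ranked between 1 and 5 among all genes by count, and between 17 and 39 by CPM per kb. After challenge Fn1, Timp2 and Adam8 kept ranks 1, 4 and 5, Thbs1 stood above Prg4 in the mean of WT ID8 (615 ± 177 against 562 ± 84.1 CPM per kb, with overlapping libraries), and Timp1 moved from rank 9 to rank 6.

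**Figure D1:**
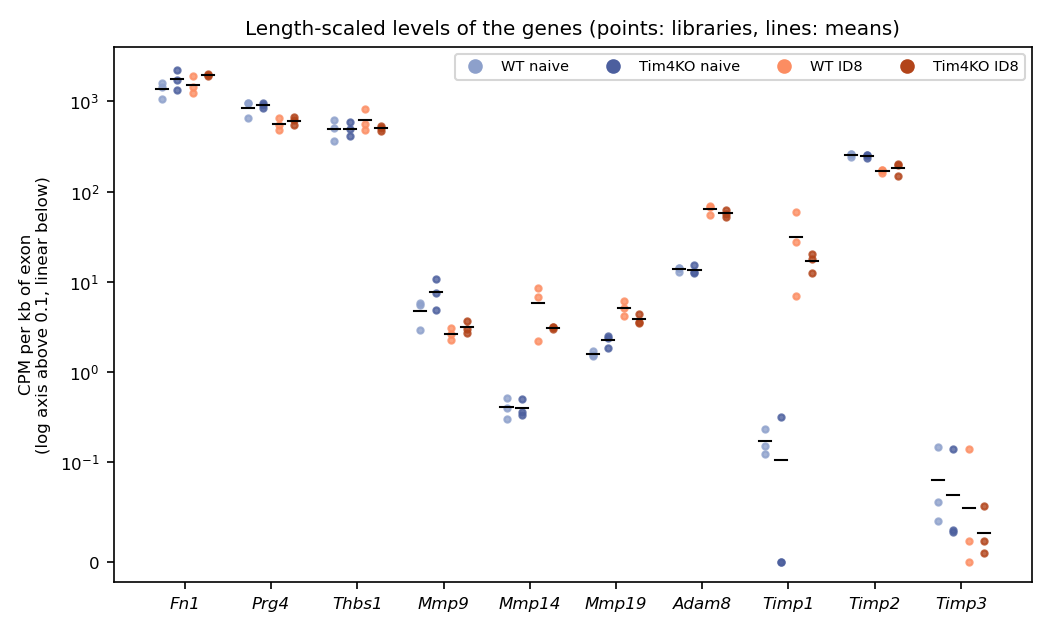
Levels of the 10 genes in CPM per kb of exon (vertical axis, logarithmic above 0.1 and linear below), with a point for each of 12 libraries and a line at each group mean. Fn1 is highest in every group, and Timp1 goes from 0.17 in naive WT to 31.4 in WT ID8.

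Challenge moved the proteinases and inhibitors in both directions and left the largest member, Fn1, without a call. In WT cells 4 members rose (Timp1, Mmp14, Adam8 and Mmp19) and 3 fell (Prg4, Timp2 and Mmp9), and the same 4 and 3 were called in Tim4KO cells. Over all genes tested, 19.5% were called higher and 12.3% lower in WT, and 11.5% higher and 5.06% lower in Tim4KO (edgeR quasi-likelihood test, Benjamini-Hochberg adjusted p under 0.05). The median log2 change over the members was 0.24 in WT and 0.09 in Tim4KO, against -0.04 and -0.05 over all genes. Upper-quartile scaling put the all-gene median in WT at -0.28, and 33.9% of WT calls and 48.7% of Tim4KO calls then pointed up, where TMM scaling gave 61.3% and 69.5%. With 1 library left out, the share called lower in WT ran from 6.25% (without naive WT library 3) to 20.2% (without WT ID8 library 1). The share called higher in WT ran from 13.5% to 21.4% in the same 2 fits. In Tim4KO the share higher went down to 5.41% (without naive Tim4KO library 2) and the share lower to 1.5% (without Tim4KO ID8 library 2). Without WT ID8 library 3 they were highest, at 14% and 6.72%. The direction of every called member was the same under each scaling. In bulk RNA, fewer cells of a type and less RNA per cell cannot be told apart.

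**Figure D2:**
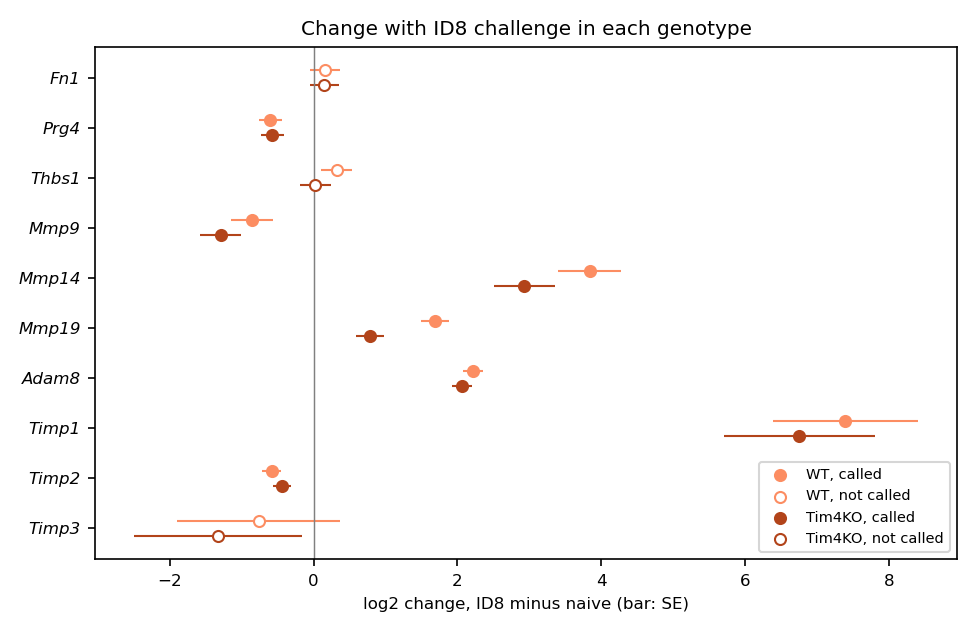
Log2 change of each gene from naive to ID8-challenged cells (horizontal axis) in WT and Tim4KO, with SE bars and filled points for adjusted p under 0.05. Timp1 lies farthest to the right at 7.40 and 6.76, and Prg4, Timp2 and Mmp9 lie left of 0 in both genotypes.

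Among the matrix proteins, Prg4 fell and neither Fn1 nor Thbs1 was called. Prg4 was at 2797, 4066 and 4090 CPM in the 3 naive WT libraries and at 2784, 2068 and 2361 CPM in WT ID8. The lowest naive library lay just above the highest challenged one, so the groups did not overlap. The change was -0.60 (SE 0.16, adjusted p = 0.0116). In Tim4KO cells Prg4 went from 4066, 3944 and 3647 CPM to 2677, 2330 and 2832 CPM, a change of -0.57 (SE 0.16, adjusted p = 0.025), again without overlap. The call was lost in WT without naive library 2 (adjusted p = 0.0718) or 3 (0.0717) or ID8 library 2 (0.0719). In Tim4KO it was lost without naive library 1 (0.064), 2 (0.106) or 3 (0.059), or ID8 library 1 (0.088), 2 (0.171) or 3 (0.0631).

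Fn1 read 12249, 18662 and 16909 CPM in naive WT, and 16655, 14619 and 22210 CPM in WT ID8. The spread within each group exceeded the difference of their means, and the change was 0.16 (SE 0.21, adjusted p = 0.552). Tim4KO cells gave 15462, 20340 and 26175 CPM before challenge and 22456, 23338 and 22961 CPM after it, a change of 0.15 (adjusted p = 0.669). The naive Tim4KO libraries were spread over a wide range, whereas the challenged ones lay close together inside it. Thbs1 read 2181, 3743 and 3056 CPM in naive WT and 3367, 4943 and 2891 CPM in WT ID8 (change 0.32, SE 0.22, adjusted p = 0.257). It read 2496, 2984 and 3588 CPM in naive Tim4KO and 3110, 2865 and 3258 CPM in Tim4KO ID8 (change 0.03, adjusted p = 0.948). Groups overlapped in both genotypes, and without the filter on low counts Thbs1 passed the threshold in WT (0.42, adjusted p = 0.0411). The sign of the small Fn1 and Thbs1 changes was not stable to scaling: upper-quartile scaling gave -0.069 for Fn1 in WT and -0.096 for Thbs1 in Tim4KO.

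The proteinases divided, with 3 rising and 1 falling. Adam8, a membrane protease of myeloid cells, was at 60.0, 65.6 and 65.8 CPM in naive WT and at 254.8, 322.4 and 310.7 CPM in WT ID8. Tim4KO libraries gave 58.5, 59.8 and 71.8 CPM and then 259.9, 291.8 and 243.9 CPM. Every challenged library was over 3 times the highest naive one. The change was 2.21 (SE 0.14, adjusted p = 2.11e-07) in WT and 2.06 (SE 0.14, adjusted p = 1.05e-06) in Tim4KO, and it was called in all 12 fits that left out 1 library and under all 9 other settings.

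Mmp14 encodes MT1-MMP, a membrane-anchored collagenase and activator of pro-MMP2. Its naive values were 2.38, 1.80 and 3.07 CPM in WT and 1.97, 2.13 and 2.98 CPM in Tim4KO. After challenge the WT libraries read 40.7, 50.8 and 13.2 CPM, and the Tim4KO libraries 17.9, 18.8 and 18.6 CPM. No challenged library came near the naive range, and WT ID8 library 3 lay below all the Tim4KO ID8 libraries while the other two WT libraries lay above them. The change was 3.84 (SE 0.43, adjusted p = 7.97e-05) in WT and 2.93 (SE 0.43, adjusted p = 0.000888) in Tim4KO. Without WT ID8 library 3 the WT change was 4.26, and without library 2 it was 3.49.

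Mmp19, a secreted metalloproteinase that cuts basement membrane proteins, had the smallest rise. It went from 5.31, 5.41 and 6.08 CPM to 18.2, 21.6 and 14.8 CPM in WT, a change of 1.69 (SE 0.19, adjusted p = 3.01e-05). In Tim4KO it went from 8.77, 8.39 and 6.53 CPM to 12.8, 12.3 and 15.5 CPM, a change of 0.78 (SE 0.19, adjusted p = 0.0113). The groups did not overlap in either genotype. The Tim4KO call was lost without naive library 3 (0.67, adjusted p = 0.0668) or ID8 library 3 (0.69, adjusted p = 0.0642).

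Mmp9 (gelatinase B) went the other way. Naive WT libraries had 10.3, 19.5 and 20.7 CPM and WT ID8 libraries 10.9, 9.28 and 8.08 CPM, with naive library 1 inside the challenged range. The change was -0.85 (SE 0.29, adjusted p = 0.04). It rested on a thin margin: adjusted p was 0.131 without naive library 2, 0.155 without naive library 3, and 0.0555, 0.112 and 0.184 without ID8 libraries 1, 2 and 3. Leaving out a library of the other genotype also ended the call, at 0.062 without naive Tim4KO library 2 and 0.0598 and 0.0641 without Tim4KO ID8 libraries 2 and 3. With the replicate number as a block it was -0.81 (adjusted p = 0.0615), in limma voom -0.88 (adjusted p = 0.0545) and with the receptor reads as a covariate -0.87 (adjusted p = 0.156). In Tim4KO cells Mmp9 fell from 17.1, 26.8 and 38.0 CPM to 13.1, 9.60 and 10.7 CPM without overlap, a change of -1.30 (SE 0.29, adjusted p = 0.00823). That call was lost without naive library 3 (-0.95, adjusted p = 0.0518) or ID8 library 2 (-1.16, adjusted p = 0.0519).

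The inhibitors showed the widest contrast of the group. Timp1, a secreted inhibitor of most MMPs, was all but absent before challenge, with 1, 2 and 3 counts in naive WT and 0, 0 and 5 in naive Tim4KO. The challenged libraries held 215, 614 and 135 counts in WT and 205, 120 and 315 in Tim4KO. In CPM the WT ID8 libraries were at 24.7, 52.8 and 6.16 and the Tim4KO ID8 libraries at 15.8, 11.1 and 18.2. All 6 challenged libraries were far above all 6 naive ones, and WT ID8 varied most, with library 3 the lowest of the 6. Pooled over libraries and scaled for depth, the ratio of challenged to naive was 146.5 in WT (95% interval 67.1 to 400.3) and 116.4 in Tim4KO (49.6 to 359.7). These intervals cover counting error only. The WT ratio was 261.9 without ID8 library 3 and 73.4 without ID8 library 2. The fitted changes of 7.40 (SE 1.01, adjusted p = 0.000658) and 6.76 (SE 1.05, adjusted p = 0.00259) depend on the few naive counts. The second was 10.6 without naive Tim4KO library 3, the one with 5 counts. With limma voom neither was called (adjusted p = 0.192 and 0.273).

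Timp2 was the inhibitor with by far the highest level, and it fell. It read 930, 1007 and 1021 CPM in naive WT and 624, 668 and 678 CPM in WT ID8. Naive Tim4KO libraries had 989, 994 and 907 CPM and Tim4KO ID8 libraries 759, 586 and 783 CPM. No groups overlapped across the challenge. The change was -0.59 (SE 0.13, adjusted p = 0.00319) in WT, called in each fit without 1 library, and -0.44 (SE 0.13, adjusted p = 0.0273) in Tim4KO. The Tim4KO call was lost when any of its own libraries was left out: adjusted p was 0.0702, 0.141 and 0.0851 without naive libraries 1, 2 and 3, and 0.0821, 0.295 and 0.0603 without ID8 libraries 1, 2 and 3. It was also lost without naive WT library 2 (0.0605) or 3 (0.055) or WT ID8 library 1 (0.054), and without the filter on low counts (0.157).

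Timp3 was near the limit of detection, at 0 to 20 counts per library and at or under 3 counts in 6 of 12 libraries. All 4 groups overlapped, and no change was detectable at this depth (WT -0.77, adjusted p = 0.613, and Tim4KO -1.33, adjusted p = 0.486). Syn3 exons on the opposite strand overlap 1733 of the 8144 exonic bases of Timp3, and whether counting used strand was not given in the sources used here. The same holds for smaller overlaps at Mmp19 (789 of 3533 bases with Tmem198b), Fn1 (292 of 11685 with Apol7d) and Prg4 (204 of 4280 with Tpr).

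**Figure D3:**
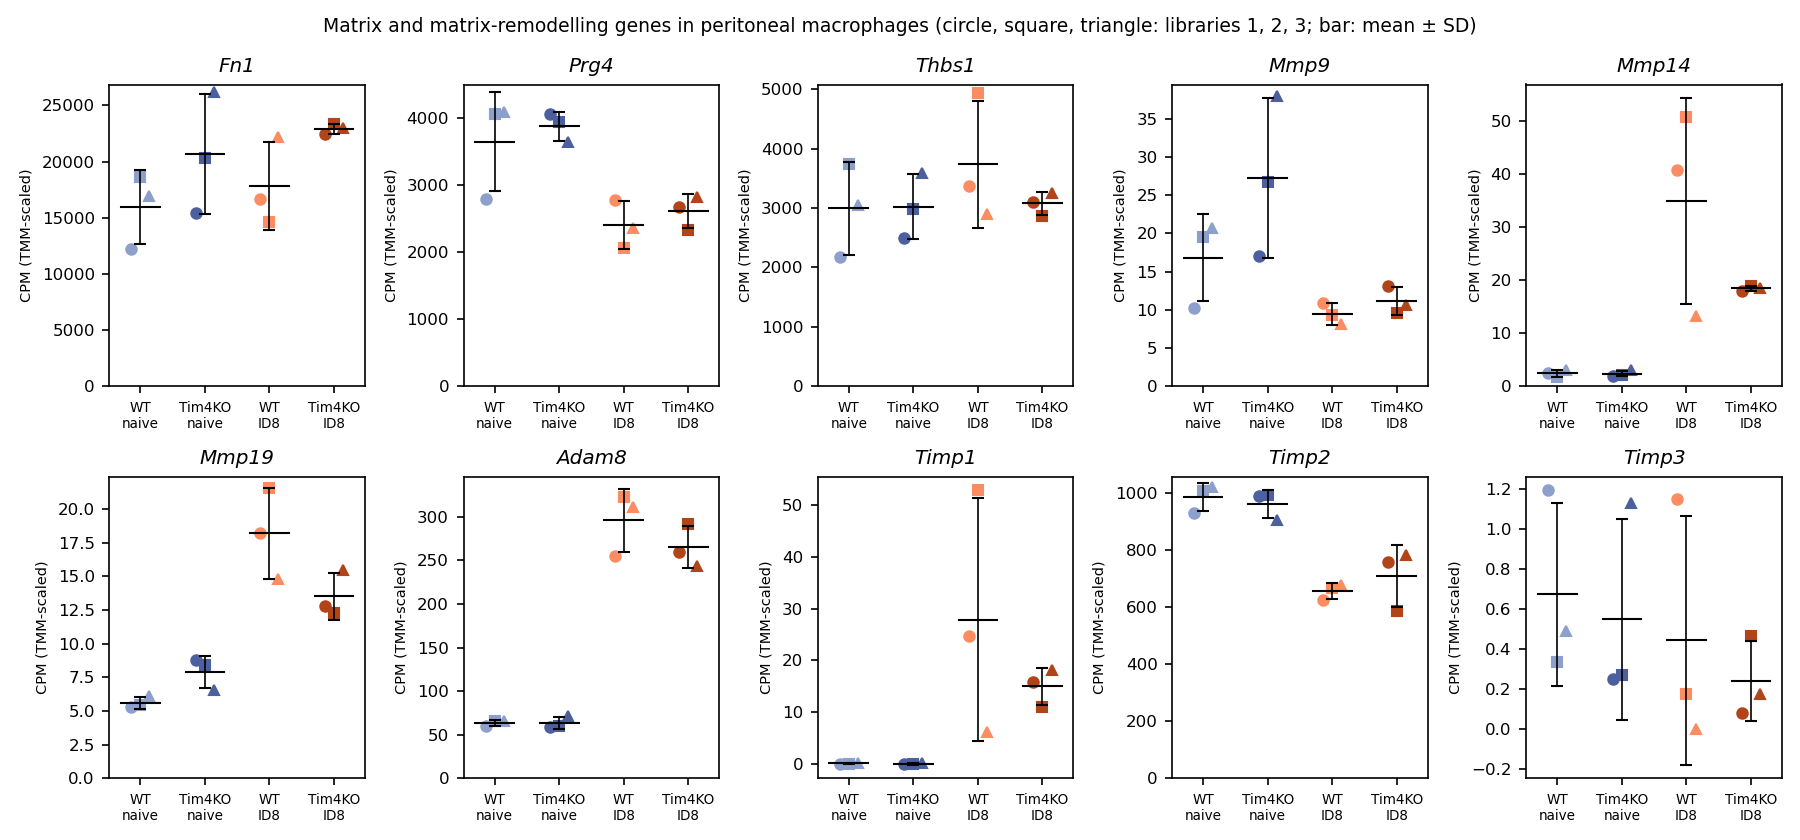
TMM-scaled CPM of each gene (linear vertical axis) in every library of the 4 groups, with symbols for libraries 1 to 3 and bars for mean ± SD. Adam8, Mmp14, Mmp19 and Timp1 sit higher in all challenged libraries than in the naive libraries of their genotype, and WT ID8 library 3 (triangle) is the lowest of its group for Mmp14 (13.2), Mmp19 (14.8) and Timp1 (6.16).

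Summed by role on the CPM per kb scale, the proteinases together went from 20.5 ± 2.41 (SD, n = 3) in naive WT to 77.5 ± 8.52 in WT ID8, and from 24.0 ± 4.22 to 67.2 ± 4.64 in Tim4KO. Adam8 made up most of each sum. The 3 TIMPs summed to 253.4 ± 12.6 and then 200.1 ± 27.0 in WT, and to 247.4 ± 12.3 and then 199.0 ± 31.6 in Tim4KO, with Timp2 the bulk of it. The 3 matrix proteins summed to 2710 ± 577 and 2702 ± 200 in WT and to 3174 ± 500 and 3079 ± 76.8 in Tim4KO. These sums are descriptions and were not tested.

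Markers of other cells were counted beside these changes. The 10 neutrophil markers summed to 7.33 to 11.0 CPM in naive and 12.2 to 33.8 CPM in challenged libraries, with WT ID8 library 3 the lowest of the latter. S100a8 gave most of it. S100a9, Cxcr2 and Retnlg also had higher means after challenge in both genotypes. Retnlg went from 0.24 to 2.11 CPM in WT and from 0.79 to 8.69 CPM in Tim4KO. Mpo, Elane and Camp had lower means in both genotypes and Ltf in WT, while Ly6g and Ngp had at most 4 counts in any library. The 8 fibroblast markers moved the other way, from 4.54 to 15.4 CPM in naive to 0.23 to 6.46 CPM in challenged libraries, as did the 11 epithelial, tumour and mesothelial markers (6.61 to 27.6 against 1.60 to 7.01 CPM). Markers of platelets summed to 4.73 to 9.08 CPM in naive and 1.80 to 4.24 CPM in challenged libraries, with Gp1bb at 0 throughout. The 5 mast cell markers summed to 12.4 to 34.2 CPM in naive and 1.61 to 9.15 CPM in challenged libraries, and the 6 B cell markers to 7.46 to 18.7 and 2.66 to 7.71 CPM. The 10 markers of small peritoneal macrophages, monocytes and dendritic cells were the most abundant, at 143.0 to 196.9 CPM in naive WT and 78.5 to 163.4 in WT ID8, and at 157.4 to 174.2 and 129.8 to 152.2 CPM in Tim4KO. The 6 T and NK cell markers summed to 3.60 to 6.28 CPM in naive and 3.06 to 8.53 CPM in challenged libraries. The part of these cells in the changes of Adam8, Timp1, Mmp9 and Mmp14 was not tested.

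Between genotypes, no member passed the test. In naive cells 0 of 10 were called, where 0.0439% of all genes were (7 of 15943). Over all genes 999 of 15943 had an unadjusted edgeR p under 0.05, and 2 members did. These were Mmp9, with 0.69 more in Tim4KO on the log2 scale (SE 0.29, edgeR adjusted p = 0.752) and overlapping groups, and Mmp19, with 0.49 more (SE 0.20, adjusted p = 0.737) and groups that did not overlap. DESeq2 and limma voom also called 0 members in naive cells, where they called 52 and 3 of all genes. The median difference over the members was 0.00, as it was over all genes to that precision.

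After challenge, 0 of 10 members were called between genotypes, where 0.0565% of all genes were (9 of 15943). DESeq2 and limma voom called no member either, and of all genes they called 265 and 10. Again 2 members had an unadjusted edgeR p under 0.05, as did 1935 of all 15943 genes. Mmp14 differed by -0.91 in Tim4KO ID8 against WT ID8 (SE 0.37, edgeR adjusted p = 0.362) and Mmp19 by -0.42 (SE 0.18, adjusted p = 0.383), each with overlapping groups. Timp1 differed by -0.88 (SE 0.62, adjusted p = 0.585). Fn1 libraries lay at 22456 CPM or more in Tim4KO ID8 and at 22210 CPM or less in WT ID8. Its groups thus did not overlap, by a small margin, and the difference was 0.36 (SE 0.21, edgeR adjusted p = 0.484). The share of all genes with groups that do not overlap was not counted. The median difference over the members was -0.22, against 0.01 over all genes.

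The outcome for Mmp14 and Timp1 turned on 1 library. Without WT ID8 library 3, the one with high cell cycle genes, Mmp14 was lower in Tim4KO ID8 by -1.31 (SE 0.18, edgeR adjusted p = 7.84e-05), Timp1 by -1.37 (SE 0.34, adjusted p = 0.0345) and Mmp19 by -0.56 (SE 0.19, adjusted p = 0.0879), so that 2 members were called. All genes moved too: that fit called 997 of 17374 (5.74%), against 9 with all libraries. In that fit the 2 remaining WT ID8 libraries carried the comparison, and their spread was taken to be like that of the other groups. Mmp14 also passed the threshold without the filter on low counts (-0.95, adjusted p = 0.0031) and with the receptor reads as a covariate (-1.16, adjusted p = 0.049). Calls over all genes rose there too, to 264 and 219, against 9 in the main fit. In those other fits no further member was called. WT ID8 library 3 had the lowest sum of receptor reads of all libraries, 5.89 CPM. The covariate fit is therefore not separate from the fit without that library.

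The test of whether the response to challenge differed between genotypes called 0 of 15943 genes (0%), with 1186 at an unadjusted p under 0.05. DESeq2 called 11 genes and limma voom 0, and neither called a member. Mmp19 was the only member with an unadjusted p under 0.05: its response was 0.91 lower in Tim4KO on the log2 scale (difference -0.91, SE 0.27, unadjusted p = 0.00406, adjusted p = 0.668). Mmp14 had a difference of -0.91 (SE 0.59, adjusted p = 0.714), Adam8 one of -0.15 (SE 0.18, adjusted p = 0.831) and Timp2 one of 0.15 (SE 0.18, adjusted p = 0.831). The median over the members was -0.37, against 0.01 over all genes. Without WT ID8 library 3 both Mmp14 (-1.33, SE 0.31, adjusted p = 0.0192) and Mmp19 (-1.04, SE 0.27, adjusted p = 0.0377) were called, and 368 of 17374 genes (2.12%). A p above the threshold does not show that the genotypes respond alike.

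**Figure D4:**
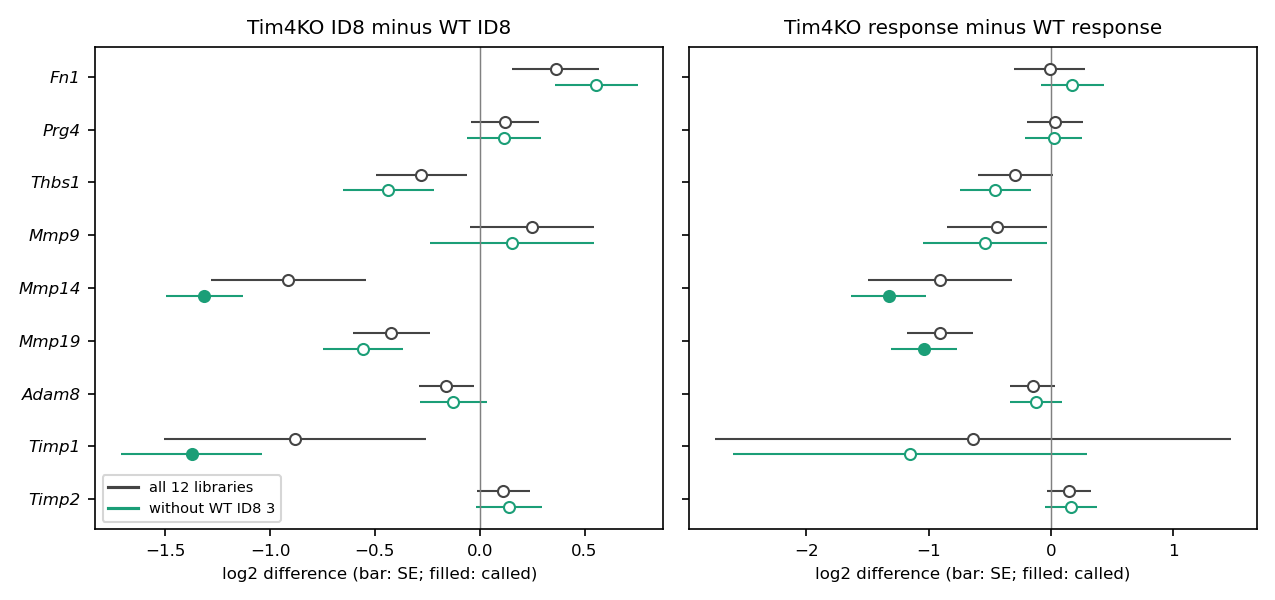
Log2 difference between Tim4KO and WT in challenged cells (left) and between the responses of the genotypes (right), for all members but Timp3, with SE bars, from all 12 libraries and without WT ID8 library 3. Filled points have an adjusted p under 0.05: none with all libraries, and without that library Mmp14 (-1.31) and Timp1 (-1.37) on the left and Mmp14 and Mmp19 on the right.

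Other genes of matrix remodelling were read from 6 lists of 123 genes, 103 of them tested. In WT cells 28 rose and 15 fell, a share that can be set beside the 19.5% and 12.3% of all genes. In Tim4KO cells 20 rose and 5 fell, beside 11.5% and 5.06% of all genes. With all 12 libraries, 0 genes of these lists were called between genotypes or in the interaction. Without WT ID8 library 3, 17 were called between genotypes in challenged cells and 5 in the interaction. Of all 17374 genes in that fit, 997 (5.74%) and 368 (2.12%) were called. The receptor covariate gave 8 and 0 of the lists, and 219 and 2 of all 15943 genes. The lists' median change was -0.30 in WT and -0.09 in Tim4KO.

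Receptors of the matrix proteins, such as integrins, CD44 and syndecans, rose in 10 of 16 cases and fell in 2 in WT, and rose in 7 and fell in 1 in Tim4KO. Cd44, the hyaluronan receptor, had a change of 1.47 (SE 0.20, edgeR adjusted p = 0.000147) in WT and 0.72 (SE 0.20, adjusted p = 0.0241) in Tim4KO. Itga5, the alpha chain of the main fibronectin receptor, had 1.11 in WT and 0.56 in Tim4KO. Cd63, a tetraspanin that binds TIMP1, had 1.50 in WT and 1.57 in Tim4KO. Sdc3 (1.03) and Lrp1 (1.20), an endocytic receptor that clears thrombospondin 1 and proteinases, had the smallest p of the list in Tim4KO beside Cd63. The list's median was 0.69 in WT and 0.40 in Tim4KO. The Tim4KO call of Cd44 was lost without naive library 2 (adjusted p = 0.115) or ID8 libraries 1 (0.074) or 3 (0.0754) or with upper-quartile scaling (0.0686), and that of Itga5 without naive library 3 (0.052). With 1 library left out, 4 to 7 of the list rose in Tim4KO and 7 to 10 in WT. The share of all genes called higher ran from 5.41% to 14% in Tim4KO and from 13.5% to 21.4% in WT in those fits.

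Enzymes that modify and crosslink collagen and fibronectin rose in 7 of 14 tested cases in WT and 5 of 14 in Tim4KO, and none fell. Over all genes 19.5% rose in WT and 11.5% in Tim4KO. With 1 library left out, 5 to 7 of the list rose and 0 to 1 fell in WT, and 4 to 6 rose in Tim4KO. The share of all genes called higher ran from 13.5% to 21.4% in WT and from 5.41% to 14% in Tim4KO in those fits. Tgm2, the transglutaminase that crosslinks fibronectin, went from 11.6 ± 5.49 to 176.2 ± 21.5 CPM in WT (change 3.89, SE 0.36, adjusted p = 3.18e-05), and from 11.2 ± 4.93 to 75.1 ± 5.36 CPM in Tim4KO (change 2.71, SE 0.35, adjusted p = 0.000528; n = 3 in each group). P4hb (1.11 in WT, 1.12 in Tim4KO) and Plod1 (0.97 and 0.77), which hydroxylate collagen or aid its folding, also rose in both.

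Among 37 other matrix proteins tested, 5 rose and 6 fell in WT, and 3 rose and 3 fell in Tim4KO. Over all genes 19.5% rose and 12.3% fell in WT, and 11.5% rose and 5.06% fell in Tim4KO. Vcan (versican) went from 4.68 ± 1.19 to 35.0 ± 12.6 CPM in WT and from 5.62 ± 0.95 to 19.3 ± 4.43 CPM in Tim4KO, with changes of 2.91 and 1.76. Srgn, the proteoglycan of secretory granules, had 1.34 and 1.03. Mfge8, a bridge between dying cells and integrins, fell by 1.44 in WT and by 1.60 in Tim4KO. Spp1 (osteopontin) was outside the naming rule and picked after its values were seen; it went from 1.59 ± 0.56 to 60.0 ± 24.3 CPM in WT and from 1.29 ± 1.11 to 12.3 ± 6.61 CPM in Tim4KO.

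Of the other inhibitors and plasminogen activators, 3 rose and 2 fell of 10 tested in WT, and 2 rose in Tim4KO. With 1 library left out, 0 to 4 fell in WT and 1 to 3 rose in Tim4KO, and with the receptor covariate 0 fell in WT. That covariate fit called 3515 of all 15943 genes in WT, 66.4% of them higher, against 5067 and 61.3% without it. Over all genes 6.25% to 20.2% were called lower in WT and 5.41% to 14% higher in Tim4KO with 1 library left out. Plaur, the urokinase receptor, rose in both (1.09 and 0.88), and Serpinb2 had 1.93 in WT. Serpinb2 went from 1649 ± 124 to 6290 ± 3575 CPM in WT, and its change ran from 1.40 to 2.24 with 1 library left out. In Tim4KO it went from 1588 ± 584 to 2648 ± 351 CPM and was not called.

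Other ADAM and ADAMTS genes gave 3 rises and 5 falls of 17 tested in WT, and 2 rises in Tim4KO. The rises in WT were in the sheddases Adam9 (0.95), Adam17 (0.66) and Adam10 (0.56), and in Tim4KO in Adam15 (0.57) and Adam9 (0.50). The calls of Adam10 in WT (adjusted p = 0.0506 without naive library 1) and of Adam15 in Tim4KO (0.0647 without naive library 2) each depended on a library, that of Adam10 also on upper-quartile scaling (0.0551), on fitting only the groups compared (0.0587) and on the receptor covariate (0.143), and Adam9 was not called in Tim4KO when any of the 6 Tim4KO libraries was left out (adjusted p from 0.055 to 0.0772). The 5 that fell in WT (Adam28, Adamts2, Adamts5, Adamts12 and Adamts15) were outside the naming rule and were low genes. With the receptor reads as a covariate 0 of 17 fell. That fit called 3515 of all 15943 genes in WT, 66.4% of them higher, against 5067 and 61.3% without the covariate. Receptor reads were lower in every WT ID8 library than in any naive WT library. Leaving out 1 library put the number that fell in WT between 0 and 7 for the other ADAM and ADAMTS genes. For the other matrix proteins it was between 4 and 14. Without WT ID8 library 3 it was 2 and 6. Over all genes the share called lower in WT ran from 6.25% to 20.2% in these fits, and was 10.2% without WT ID8 library 3. Of 9 other MMPs tested, 0 were called in WT by edgeR. An unadjusted p under 0.05 was reached by 2 of them, and by 7250 of all 15943 genes. In Tim4KO the macrophage elastase Mmp12 rose from 0.75 ± 0.23 to 2.10 ± 0.46 CPM (change 1.46, adjusted p = 0.0458) and Mmp27 fell from 2.16 ± 0.96 to 0.68 ± 0.15 CPM (change -1.63, adjusted p = 0.0179). Mmp12 was not called when any of the 6 Tim4KO libraries other than naive library 1 was left out (adjusted p from 0.0717 to 0.158), nor without naive WT library 2 (0.0608), and Mmp27 was not called without naive library 2 (0.117) or ID8 libraries 2 (0.0836) or 3 (0.0754). Limma voom called neither in Tim4KO (adjusted p = 0.104 for Mmp12 and 0.0726 for Mmp27). Mmp12 was also lost with DESeq2 size factors (0.0591), upper-quartile scaling (0.0708), no low-count filter (0.0682) and the replicate block (0.0597).

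**Figure D5:**
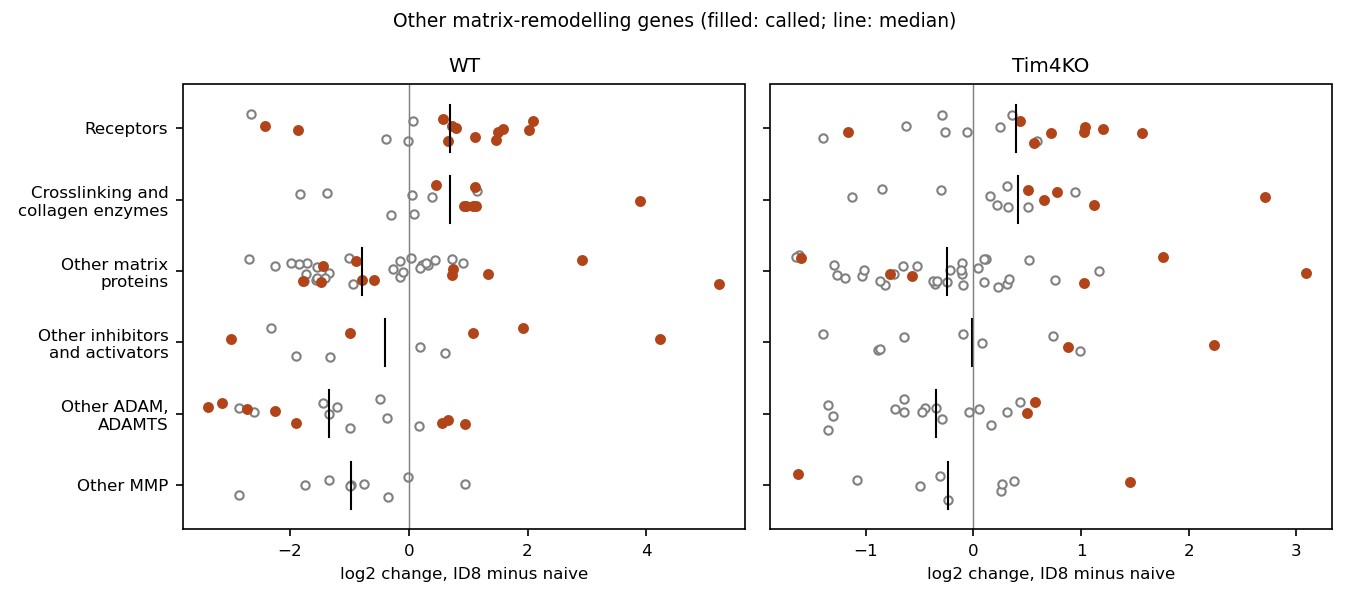
Log2 change from naive to challenged cells (horizontal axis) for each tested gene of 6 lists (rows), in WT (left) and Tim4KO (right), with filled points for adjusted p under 0.05 and a line at each list's median. Crosslinking enzymes and receptors have medians above 0 in both genotypes (0.70 and 0.69 in WT), and the other MMPs and ADAMs lie mostly below 0 in WT. Many of the latter are low genes, and without the filter on low counts the median over all genes in WT was -0.84.

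Finally, the genes whose profile over the 12 libraries was closest to each called member were listed among 9628 candidates, by the root mean square difference of centred log2 CPM. For Adam8 they were Pgk1 (0.20), Igf2r (0.21) and P2ry2 (0.22), and Pgk1, a glycolytic enzyme, had changes of 2.21 in WT and 1.98 in Tim4KO. For Mmp14 they were Acp5 (0.37), Tfrc (0.38) and Prok2 (0.44), for Mmp19 Ceacam1 (0.18), Kmt5a (0.20) and Ero1l (0.21), and for Mmp9 Zscan26 (0.27), Lilrb4a (0.28) and St8sia4 (0.28). Prg4 was closest to Socs7 (0.09), Setd1b (0.11) and Gas5 (0.13), and Timp2 to Ank (0.07), Zfp386 (0.10) and Pts (0.10). For Timp1 they were Ctla2a (0.93), Stfa3 (1.09) and Saa1 (1.10). The distance grows with a member's own spread: as a share of it the nearest gene lay at 0.29 for Timp1, 0.41 for Mmp9 and 0.18 for Adam8. Among the members themselves the closest pair was Prg4 and Timp2 (0.16). These distances describe 12 libraries that share one challenge, and flat genes lie close to one another by construction.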

How the data were processed

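The deposited table held raw read counts per gene (the authors' values, whole numbers by Ensembl gene) for 12 SMART-Seq libraries of sorted macrophages. Per the submitters' processing notes, FastQC and STAR 2.5 were used, and the builds mm10 and GRCm39 are both named without a role; the counting program, annotation release and use of strand are not given in the sources used here. Libraries were grouped by their titles. From the deposited counts, edgeR 4.0.16 (R 4.3.3) with TMM scaling, filterByExpr (minimum count 10), robust quasi-likelihood tests on all 12 libraries (8 residual degrees of freedom) and Benjamini-Hochberg adjustment over 15943 genes gave 5 two-sided comparisons; the code was tested on simulated data. Alternatives were other scalings and filters, DESeq2 1.42.0, limma 3.58.1 voom, only the compared groups, a replicate block, a receptor-read covariate and each library left out. CPM per kb used the union of exons in GENCODE vM21 (GRCm38).

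The 10 genes and the lists were chosen with earlier results of these data known. All 10 genes are named, and so are Spp1 and the 5 ADAM and ADAMTS genes that fell in WT, which lie outside the rule given next. From each of the 6 lists, the up to 3 called genes of smallest p in each challenge comparison are named, and any called between genotypes (1 gene that this names is not reported here); for each called member the 3 nearest profiles are named among genes averaging 50 or more counts. Promoter windows came from RefSeq.

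Total counts ran from 7358559 to 23170244, so 3 counts, the limit that a count of 0 allows, equal 0.137 to 0.399 CPM. Replicate numbers come from the library titles. In the WT challenge comparison the deviations of same-numbered libraries correlated at 0.42, 0.10 and 0.19. For library 3 the correlation with a library of another number was higher, at 0.23. The labels state no pairing, so a fit with the number as a block treats them only as possible pairs. In each of the other comparisons at least 1 same-numbered pair correlated below 0.1.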

Additional observations from a re-analysis of the deposited data

How the results depend on the processing

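Limits first: 3 libraries a group, 1 of them apart in WT ID8, and 0 to 5 naive Timp1 counts set the precision. Adam8 and Mmp14 were called in both challenges, and Mmp19 in WT, under all settings; Timp1 failed only in limma voom. Members called in the Tim4KO challenge ranged from 3 to 7 when 1 library was left out (3 without naive Tim4KO library 3, 4 without Tim4KO ID8 library 2 or 3; all genes called were 1484, 1420 and 1666 there, 1222 without naive library 2 and 1432 without ID8 library 1, against 2642), and in challenged cells by genotype and in the interaction from 0 to 2. Without the low-count filter 1 member was called by genotype in challenged cells, and 1 with the receptor covariate.

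Signs that turned were all of uncalled changes. In the WT challenge, upper-quartile scaling gave Fn1 -0.069, and the covariate gave Fn1 -0.086 and Timp3 2.08. For Thbs1 in the Tim4KO challenge, DESeq2 size factors gave -0.023, upper-quartile scaling -0.096, a mean count of at least 50 -0.085, DESeq2 -0.023 and only the groups compared -0.0071. In naive cells by genotype, Thbs1 was -0.020 with upper-quartile scaling, and Mmp14 was 0.0082 without the filter, 0.051 in voom, 0.0081 with the block and 0.099 with the covariate. Adam8 there was 0.0011 without the filter, and Timp3 0.0089 in voom, 0.042 with the block and 0.55 with the covariate. In challenged cells Timp3 was 0.89 in voom. In the interaction, Fn1 was 0.096 (upper quartile), 0.036 (mean count of at least 50), 0.022 (voom), 0.021 (block) and 0.16 (covariate), Prg4 -0.014 without the filter, and Timp1 0.76 and Timp3 0.88 in voom. The cause was not tested.

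With 1 library left out, the lowest and highest values were -0.0014 and 0.37 for Fn1 and -0.075 and 0.18 for Thbs1 in the Tim4KO challenge, -0.0087 and 0.33 for Fn1 in the WT challenge, and -1.49 and 1.60 for Timp3 in challenged cells by genotype. In naive cells by genotype they were -0.10 and 0.050 for Adam8, -0.24 and 0.23 for Mmp14, -0.071 and 0.19 for Prg4, -0.17 and 0.22 for Thbs1, -4.07 and 0.29 for Timp1, -0.076 and 0.013 for Timp2, and -1.31 and 0.49 for Timp3. In the interaction they were -0.19 and 0.17 for Fn1, -0.081 and 0.19 for Prg4, -1.19 and 3.18 for Timp1, and -1.34 and 1.72 for Timp3.

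Over all genes, 3102 were called in the WT challenge with only its groups fitted, against 5067. There were 3362 without naive WT library 3 and 7230 without WT ID8 library 1. By genotype in naive cells, 59 were called without the filter, 52 by DESeq2, 3 by voom, 2 with only the groups compared and 3 with the block, against 7. In challenged cells, 264 were called without the filter, 265 by DESeq2, 14 with the block and 219 with the covariate, against 9; in the interaction 73, 11 by DESeq2 and 2 with the covariate, against 0. With 1 library left out, calls ran from 1 to 29 in naive cells, from 1 to 997 in challenged cells and from 0 to 368 in the interaction, each highest without WT ID8 library 3. With the replicate block, the fit of the WT challenge gave 6 members called, Mmp9 being lost, and it changed no other member's call. In all comparisons the samples are known to share only a number. The block gave 7 members in the Tim4KO challenge and 0 in the genotype comparisons and the interaction. Exon length from the longest transcript changed the order only of Mmp9, Mmp14 and Mmp19 in Tim4KO ID8 and of Timp1 and Timp3 in naive Tim4KO.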
